A study of Homo sapiens with 15 samples.

Results

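The S100 proteins and galectins described here were 10 genes of the 57820 gene identifiers in the series, namely S100A4, S100A6, S100A8, S100A9, S100A10, S100A11, S100A12, LGALS1, LGALS3 and LGALS9. They were chosen by gene symbol, with earlier results of these data known, and the normalized read counts were used only to tell which of them were measured in each line. RNA-seq was performed in 3 human acute myeloid leukemia (AML) lines, HL-60, U937 and MOLM-13, each transduced with the vector-only control pLKO or with a short hairpin RNA against RNF5 (shRNF5), a ubiquitin ligase anchored in the endoplasmic reticulum membrane. HL-60 was represented by 3 libraries per construct, U937 by 2 per construct and MOLM-13 by 3 with pLKO and 2 with shRNF5, giving 15 libraries in 6 groups. Each group is an established line grown in culture and carrying a vector, and the RNF5 hairpin used for sequencing is not given in the sources used here. The sample labels place the RNA at day 7 of knockdown and the series design at day 5. The labels do not say that replicates were separate cultures, so p-values measure only the spread between these libraries, which may be technical. In bulk RNA, fewer cells of a type and less RNA per cell cannot be told apart.

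S100 proteins are small calcium-binding proteins with EF-hand motifs that act as dimers inside cells and, when released, as signals to neighboring cells. S100A8 and S100A9 pair to form calprotectin, an abundant cytosolic protein of neutrophils and monocytes whose genes are switched on as myeloid cells mature, and S100A12 is their close relative in granulocytes. Galectins are lectins that bind beta-galactoside sugars on cell surface glycoproteins and can also act in the cytosol and nucleus. RNF5 is known to act on the stability of the S100A8 protein in intestinal epithelial cells, a level that RNA-seq does not measure. The study also found S100A8 among the proteins bound to tagged RNF5 in MOLM-13 cells.

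The RNF5 transcript was lower in every shRNF5 library than in every pLKO library of its line. Its log2 fold change was between -3.77 and -3.25. In HL-60 the RNF5 values were 37, 133 and 43 in shRNF5 replicates 1, 2 and 3. Whether the higher RNF5 level in replicate 2 bears on the members' values was not tested. By estimate, 9700000 to 63100000 reads were counted per library. In MOLM-13 the 3 pLKO libraries held 9700000 to 15300000 reads and the 2 shRNF5 libraries 24400000 and 63100000, so depth moved with the construct there and its part in the results was not tested. The myeloid markers MPO, CD33, SPI1, LYZ and CSF3R were above 0 in all 6 groups. The T cell markers CD3D, CD3E and CD3G were at 0 in all libraries. The HOXA-type markers HOXA9 and MEIS1 were at 0 in HL-60. Their summed level was 3328 to 4045 with pLKO and 3763 to 4132 with shRNF5 in MOLM-13, and 10399 to 12574 and 4143 to 6111 in U937. Of the epithelial markers, only KRT18 was above 0, and only in MOLM-13. The fibroblast markers COL1A1 and COL1A2 summed to at most 234, in U937 pLKO.

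The 7 S100 members lie on chromosome 1 in the S100 gene cluster (coordinates on GRCh37). S100A8 (ENSG00000143546.5) spans 153362508 to 153363549 on the reverse strand and S100A9 (ENSG00000163220.10) spans 153330330 to 153333499 on the forward strand, each with 3 exons. S100A12 (153346187 to 153348097) sits between them, while S100A6 (153507075 to 153508720) and S100A4 (153516089 to 153522612) start 145.2 and 159.1 kb further along the chromosome. Starts here are the edges of the whole gene spans. S100A10 (151955391 to 151966335) and S100A11 (152004982 to 152020383) form a separate group more than a megabase away. LGALS1 lies on chromosome 22 (38071643 to 38075809, 4 exons), LGALS3 on chromosome 14 (55590828 to 55612141, 6 exons) and LGALS9 on chromosome 17 (25956824 to 25976586, 11 exons).

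The 250 bases before the transcription start are shown for 4 S100 genes of the cluster whose RNA rose in at least 1 line. They are RefSeq sequences of the GRCh38.p14 build, a different build from the coordinates above, and 9 of the 10 members had an entry (LGALS1 had none). Their starts are those of RefSeq and need not be the gene edges used above, as for S100A4. S100A8 lies at chr1:153391074-153391323 (reverse strand, the middle of the 3 starts listed), S100A9 at chr1:153357604-153357853 (forward), S100A6 at chr1:153535992-153536241 (reverse) and S100A4 at chr1:153545807-153546056 (reverse). Each runs 5′ to 3′ toward the gene, and capitals mark matches on either strand to TTNNGNAA or TATAAA. TTNNGNAA is a form of the site of the C/EBP myeloid transcription factors, and TATAAA is a form of the TATA box.
S100A8: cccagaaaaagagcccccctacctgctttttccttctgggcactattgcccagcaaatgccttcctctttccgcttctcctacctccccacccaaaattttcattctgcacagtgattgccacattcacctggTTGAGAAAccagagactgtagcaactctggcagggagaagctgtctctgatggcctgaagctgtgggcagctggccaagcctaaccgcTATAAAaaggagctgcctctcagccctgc
S100A9: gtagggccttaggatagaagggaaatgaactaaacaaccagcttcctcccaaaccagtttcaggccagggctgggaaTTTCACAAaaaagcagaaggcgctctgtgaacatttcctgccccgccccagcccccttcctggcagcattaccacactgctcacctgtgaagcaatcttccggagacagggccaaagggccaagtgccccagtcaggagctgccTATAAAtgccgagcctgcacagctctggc
S100A6: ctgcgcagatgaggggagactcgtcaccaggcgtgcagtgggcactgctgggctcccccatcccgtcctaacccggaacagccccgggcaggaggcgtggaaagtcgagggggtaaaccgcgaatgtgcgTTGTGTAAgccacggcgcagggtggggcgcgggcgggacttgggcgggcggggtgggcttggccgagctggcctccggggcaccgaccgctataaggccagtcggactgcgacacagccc
S100A4: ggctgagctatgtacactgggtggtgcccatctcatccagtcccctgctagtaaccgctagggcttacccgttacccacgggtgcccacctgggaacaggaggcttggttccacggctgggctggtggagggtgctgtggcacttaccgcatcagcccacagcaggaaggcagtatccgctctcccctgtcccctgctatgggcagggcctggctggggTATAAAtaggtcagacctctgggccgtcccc

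The S100A8 and S100A9 sequences each held 1 TTNNGNAA match, beginning 117 and 173 bases before the start, and each held TATAAA beginning 29 bases before it. Each also held GAGGAA, the core of the site of the myeloid factor PU.1, at 189 and 208 bases before the start, with no overlap between the 3 motifs. S100A6 had a TTNNGNAA match 120 bases before the start and no exact TATAAA, though it held the similar TATAAG. S100A4 had TATAAA 31 bases before the start and no TTNNGNAA. The TATAAA of S100A12, not printed here, began only 8 bases before the start. Among the 9 members with a sequence, TTNNGNAA was found in 5, TATAAA in 4 and GAGGAA in 2. Of 35116 promoter sequences of the same length in the table, 33.2% held TTNNGNAA, 10.7% held TATAAA and 23.6% held GAGGAA. A match describes letters in a window and is not a measured binding site.

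Across the 3 lines, S100A8 and S100A9 RNA went up with shRNF5 in U937 and HL-60, where both started low, and S100A9 went down in MOLM-13, where both started high. S100A4, S100A6 and LGALS1 rose 2.72- to 4.89-fold in HL-60. LGALS1 also rose in MOLM-13, by 1.76-fold, and S100A10 and LGALS9 fell in HL-60. Calls required a limma adjusted p under 0.1 with a log2 fold change beyond 0.4 in either direction. Fold changes are on the log2(normalized read count + 1) scale, on which the change of a low gene appears smaller than it is. In HL-60, 7 of the 8 members tested were called, 5 rising and 2 falling, where 25.9% of all tested genes were called (13.6% rising and 12.3% falling). U937 had 2 of 9 members called, both rising, beside 15.7% of all tested genes (6.92% rising and 8.74% falling). MOLM-13 also had 2 of 9 members called, of which 1 rose and 1 fell, beside 2.04% of all tested genes (1.03% rising and 1.01% falling). The median log2 fold change of the members was 1.44 in HL-60, 0.32 in U937 and -0.08 in MOLM-13, where that of all tested genes was 0.00, 0.00 and 0.01. The groups did not overlap for 6 of 8 members in HL-60, 4 of 9 in U937 and 4 of 9 in MOLM-13. Among all tested genes the shares without overlap were 38.5%, 59.2% and 38.7% in the same order. The genes were picked with earlier results in view, so neither the counts nor the adjusted p-values are independent evidence. In all, 7 of the 10 members were called in at least 1 line, S100A11 and LGALS3 in no line, and S100A12 was not tested.

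**Figure D1:**
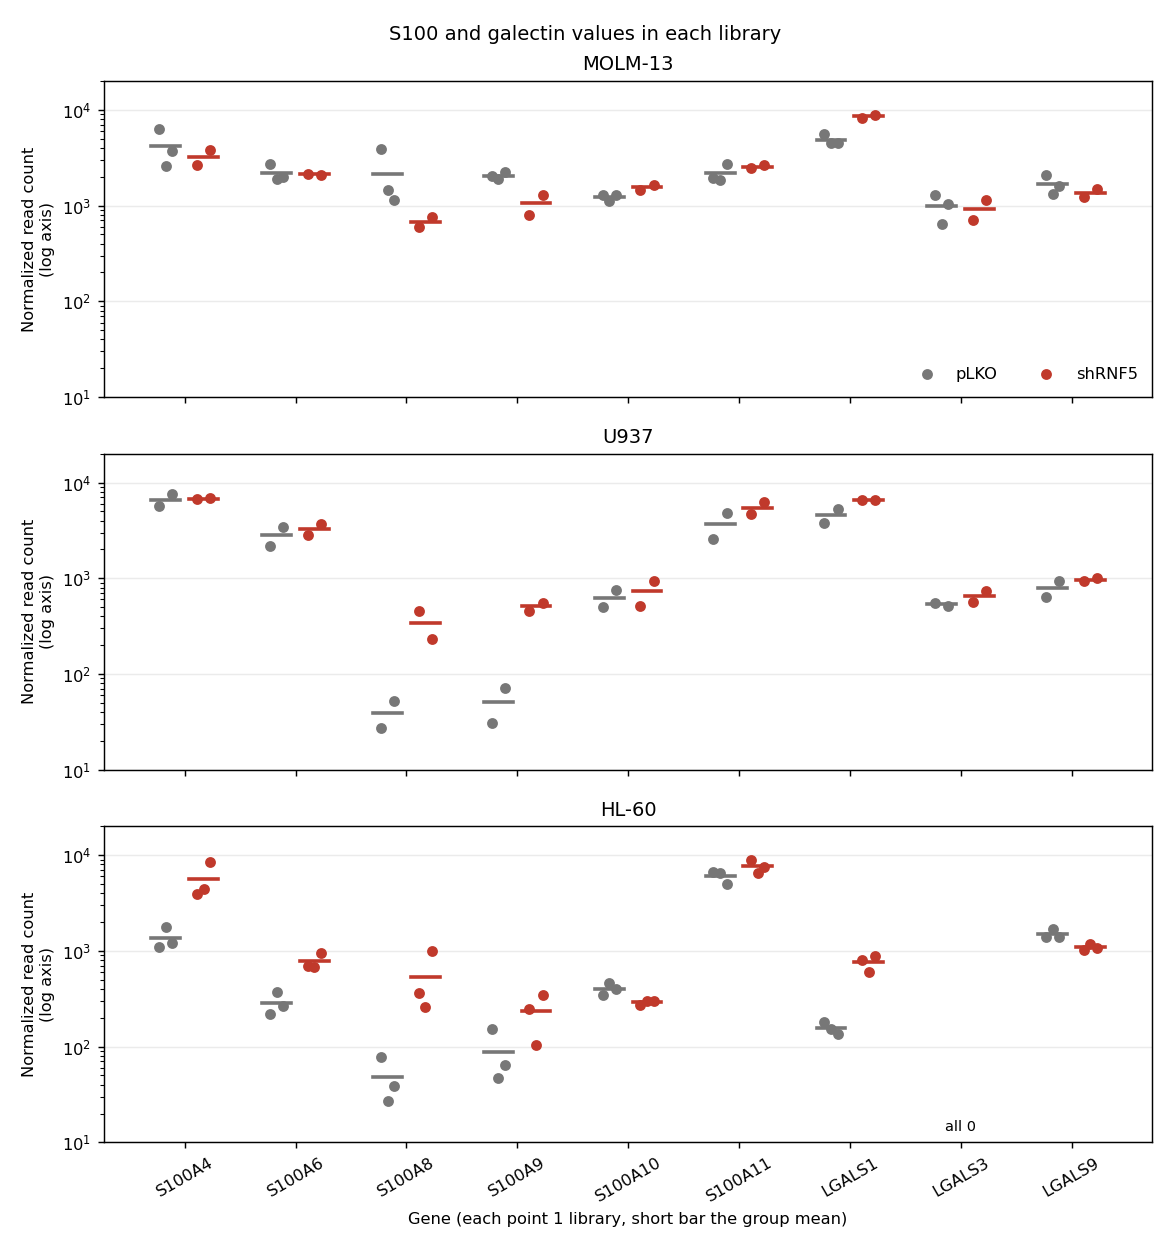
Normalized read counts (log axis) of the 9 measured members in each of the 15 libraries, by line, with pLKO in grey, shRNF5 in red and a short bar at each group mean. S100A8 and S100A9 are between 27 and 154 with pLKO in U937 and HL-60 and between 1135 and 3889 with pLKO in MOLM-13, and LGALS3 is at 0 throughout HL-60.

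S100A8 encodes the smaller calprotectin subunit. Its normalized read counts in MOLM-13 were 3889, 1453 and 1135 with pLKO and 595 and 754 with shRNF5. Both shRNF5 libraries lay below all 3 pLKO libraries, of which 1 was more than double the others. The log2 fold change was -1.47 (SE 0.45, limma adjusted p = 0.177), which did not pass. Without pLKO replicate 1 it was -0.94 and passed (SE 0.18, limma adjusted p = 0.0579).

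In U937, S100A8 was at 27 and 52 with pLKO and at 454 and 234 with shRNF5. The groups did not overlap, and the mean rose 8.71-fold, from 39.5 ± 17.7 (SD, n = 2) to 344.0 ± 155.6 (SD, n = 2). On the log2 scale the rise was 3.09 (SE 0.48, limma adjusted p = 0.015). In HL-60 the values were 77, 27 and 39 with pLKO and 359, 257 and 992 with shRNF5. Every shRNF5 library was again higher, and the 1 at 992 stood well above the other 2. The mean rose 11.2-fold (log2 fold change 3.35, SE 0.47, limma adjusted p = 0.00212). The pLKO values rest on few reads, an estimated 23 and 67 in the U937 pLKO libraries and 26 to 98 in those of HL-60.

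S100A9 encodes the larger subunit, without which S100A8 protein is known to be unstable. In MOLM-13 it was at 2014, 1910 and 2239 with pLKO and at 803 and 1303 with shRNF5. The pLKO libraries lay close together and above both shRNF5 libraries, and the mean fell from 2054.3 ± 168.2 (SD, n = 3) to 1053.0 ± 353.6 (SD, n = 2). The log2 fold change was -1.0 (SE 0.21, limma adjusted p = 0.0872). This call was lost when pLKO replicate 2 was left out (limma adjusted p = 0.206), and likewise without pLKO replicate 3 (0.134), shRNF5 replicate 1 (0.643) or shRNF5 replicate 2 (0.209), with log2 fold changes of -1.35 to -0.65 as each library was left out. It was also lost without the mean-variance trend (limma adjusted p = 0.189) and in a joint fit of the 3 lines (0.331).

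In U937, S100A9 was at 31 and 71 with pLKO and at 458 and 557 with shRNF5, a 9.95-fold rise with no overlap. On the log2 scale the rise was 3.40 (SE 0.44, limma adjusted p = 0.00901). The calls of both calprotectin genes in U937 were lost without pLKO replicate 2 (limma adjusted p = 0.256 for each), shRNF5 replicate 1 (0.519 for each) or shRNF5 replicate 3 (0.11 for S100A8 and 0.119 for S100A9), fits that leave 1 library in a group. Over these fits the log2 fold change was 2.61 to 3.56 for S100A8 and 2.81 to 3.54 for S100A9.

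In HL-60, S100A9 was at 154, 47 and 64 with pLKO and at 246, 105 and 348 with shRNF5. The groups overlapped, since pLKO replicate 1 at 154 exceeded shRNF5 replicate 2 at 105. The mean rose from 88.3 ± 57.5 (SD, n = 3) to 233.0 ± 122.0 (SD, n = 3), with a log2 fold change of 1.41 (SE 0.47, limma adjusted p = 0.0573). The call was lost without pLKO replicate 2 (limma adjusted p = 0.139), pLKO replicate 3 (0.175), shRNF5 replicate 1 (0.111) or shRNF5 replicate 3 (0.212), and without the mean-variance trend (0.122). S100A9 was the only member called in all 3 lines, down in MOLM-13 and up in the others.

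S100A12, the third of the calgranulins, was listed at 0 in all 15 libraries, as are genes that failed the authors' filter on low counts, and was not tested. Its gene lies between S100A9 and S100A8.

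The 2 calprotectin genes did not keep one ratio across the groups. The value of S100A8 divided by that of S100A9 was 1.93, 0.76 and 0.51 in MOLM-13 with pLKO, against 0.74 and 0.58 with shRNF5. In U937 it was 0.87 and 0.73 with pLKO and 0.99 and 0.42 with shRNF5. In HL-60 it was 0.50, 0.57 and 0.61 with pLKO and 1.46, 2.45 and 2.85 with shRNF5, so that only in HL-60 did the shRNF5 libraries all lie above the pLKO libraries. These ratios are a description, and no test was run on them.

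**Figure D2:**
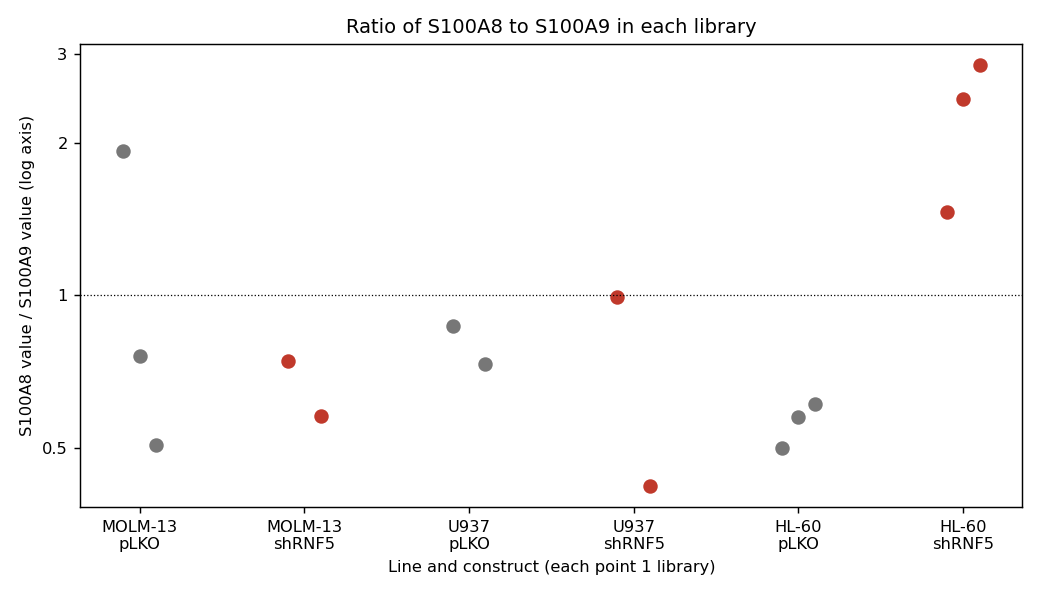
Ratio of the S100A8 to the S100A9 normalized read count in each library (log axis), 1 point per library, by line and construct, with a dotted line at 1. The HL-60 shRNF5 libraries lie between 1.46 and 2.85, above the HL-60 pLKO libraries at 0.50 to 0.61.

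S100A4, a regulator of non-muscle myosin linked to cell motility, and S100A6, also called calcyclin, are neighbors in the cluster. In HL-60, S100A4 was at 1093, 1757 and 1204 with pLKO and at 3974, 4456 and 8390 with shRNF5. All shRNF5 libraries were higher, and the mean rose 4.15-fold from 1351.3 ± 355.7 (SD, n = 3) to 5606.7 ± 2422.5 (SD, n = 3). On the log2 scale the rise was 2.0 (SE 0.26, limma adjusted p = 0.00157), and with any 1 library of the line left out it lay between 1.67 and 2.21.

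S100A6 in HL-60 was at 219, 373 and 264 with pLKO and at 693, 687 and 952 with shRNF5, again without overlap. Its log2 fold change was 1.46 (SE 0.21, limma adjusted p = 0.00212).
In MOLM-13, S100A4 was at 6271, 2570 and 3758 with pLKO and 2664 and 3773 with shRNF5, and S100A6 at 2730, 1883 and 1975 with pLKO and 2144 and 2108 with shRNF5. The groups overlapped for both genes, and the 95% intervals of the log2 fold change were -1.08 to 0.47 for S100A4 and -0.45 to 0.40 for S100A6. In U937, S100A4 was at 5740 and 7498 with pLKO and 6697 and 6848 with shRNF5, and S100A6 at 2195 and 3443 with pLKO and 2849 and 3680 with shRNF5. These groups overlapped too, with 95% intervals of -0.50 to 0.60 and -0.38 to 0.85.

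S100A10 forms a complex with annexin A2 at the plasma membrane and is unusual in not binding calcium, and S100A11 binds annexin A1. S100A10 in HL-60 was at 345, 462 and 398 with pLKO and at 271, 300 and 299 with shRNF5. All shRNF5 libraries were lower (log2 fold change -0.46, SE 0.15, limma adjusted p = 0.0596). The call was lost without pLKO replicate 2 (log2 fold change -0.35, limma adjusted p = 0.167), pLKO replicate 3 (0.16), shRNF5 replicate 1 (0.138) or shRNF5 replicate 3 (0.113), and in a joint fit of the 3 lines (0.152). In MOLM-13, S100A10 was at 1277, 1110 and 1294 with pLKO and 1466 and 1652 with shRNF5, which did not overlap but did not pass (log2 fold change 0.35, SE 0.15, limma adjusted p = 0.295). In U937 it was at 504 and 746 with pLKO and 511 and 943 with shRNF5, with overlapping groups (log2 fold change 0.18, SE 0.34, limma adjusted p = 0.768).

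S100A11 was called in no line. It was at 6713, 6577 and 5037 with pLKO and 8888, 6472 and 7574 with shRNF5 in HL-60, at 2564 and 4783 with pLKO and 4672 and 6197 with shRNF5 in U937, and at 1947, 1832 and 2731 with pLKO and 2451 and 2634 with shRNF5 in MOLM-13. No line had separate groups. The log2 fold change of S100A11 was 0.32 in HL-60 (SE 0.16, limma adjusted p = 0.171), 0.62 in U937 (SE 0.31, limma adjusted p = 0.231) and 0.25 in MOLM-13 (SE 0.19, limma adjusted p = 0.531). It passed without U937 pLKO replicate 3 (log2 fold change 1.07, limma adjusted p = 0.0895) and without HL-60 shRNF5 replicate 2 (0.44, limma adjusted p = 0.093). In U937 it also passed in a joint fit of the 3 lines (limma adjusted p = 0.0952) and after the correction for transcript length (limma adjusted p = 0.0665).

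**Figure D3:**
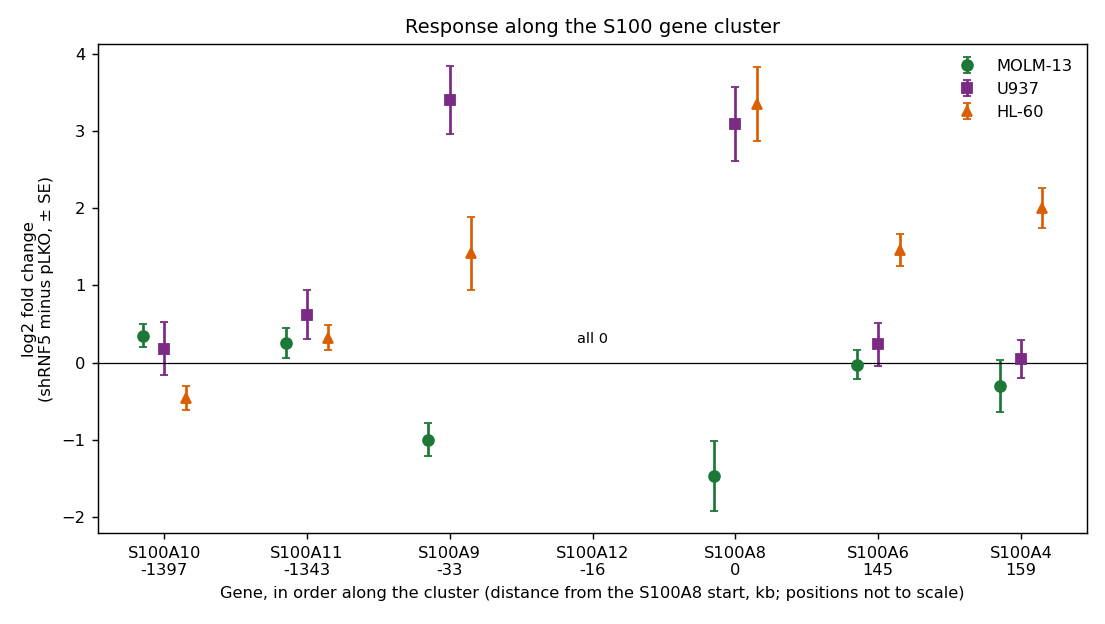
Log2 fold change of each S100 member (shRNF5 minus pLKO, bars ± SE) by line, with the genes evenly spaced in their order along chromosome 1 and the distance from the S100A8 start in kb printed below each name. S100A9 and S100A8 lie below 0 in MOLM-13 (-1.0 and -1.47) and above 0 in U937 (3.40 and 3.09), S100A12 between them is at 0 in all libraries, and S100A6 and S100A4 stand above 1 in HL-60 alone.

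LGALS1 encodes galectin-1, a dimeric lectin released by leukemic and stromal cells. In HL-60 it was at 181, 153 and 134 with pLKO and at 805, 601 and 880 with shRNF5. The groups were far apart relative to their spread, and the mean rose 4.89-fold from 156.0 ± 23.6 (SD, n = 3) to 762.0 ± 144.4 (SD, n = 3). The log2 fold change of 2.27 (SE 0.18, limma adjusted p = 0.000129) had the smallest adjusted p among the members in any line, and with any 1 library of the line left out it lay between 2.16 and 2.44.

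In MOLM-13, LGALS1 was at 5627, 4463 and 4452 with pLKO and at 8246 and 8841 with shRNF5. Both shRNF5 libraries were higher, and the log2 fold change was 0.83 (SE 0.15, limma adjusted p = 0.0704). The call was lost without pLKO replicate 2 (limma adjusted p = 0.199), pLKO replicate 3 (0.113), shRNF5 replicate 1 (0.463) or shRNF5 replicate 2 (0.515), with a log2 fold change between 0.77 and 0.94 over the 5 fits, and without the mean-variance trend (0.168). In U937 it was at 3806 and 5264 with pLKO and 6566 and 6545 with shRNF5. These groups did not overlap, but the log2 fold change of 0.55 did not pass (SE 0.25, limma adjusted p = 0.191). LGALS1 passed in U937 after the correction for transcript length (0.81, limma adjusted p = 0.0595) and in a joint fit of the 3 lines (0.0631).

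LGALS3 encodes galectin-3, the chimeric galectin that responds to damaged lysosomes. It was listed at 0 in all 6 HL-60 libraries and was not tested there. In MOLM-13 it was at 1280, 638 and 1030 with pLKO and 700 and 1139 with shRNF5, and in U937 at 550 and 518 with pLKO and 571 and 727 with shRNF5. The MOLM-13 groups overlapped and the U937 groups did not, with log2 fold changes of -0.08 (SE 0.32, limma adjusted p = 0.913) and 0.27 (SE 0.27, limma adjusted p = 0.551).

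LGALS9 encodes galectin-9, a tandem-repeat galectin. Its nearly identical copies LGALS9B and LGALS9C were listed at 0. How reads shared between the copies were counted is not given in the sources used here, so the level of LGALS9 is uncertain. In HL-60 it was at 1401, 1692 and 1403 with pLKO and at 1026, 1187 and 1070 with shRNF5. All shRNF5 libraries were lower (log2 fold change -0.45, SE 0.13, limma adjusted p = 0.0321). The call was lost without pLKO replicate 2, where the log2 fold change of -0.36 missed the threshold on size, and in a joint fit of the 3 lines (limma adjusted p = 0.104). In MOLM-13 it was at 2088, 1323 and 1593 with pLKO and 1221 and 1498 with shRNF5, and in U937 at 640 and 938 with pLKO and 935 and 999 with shRNF5. Both sets of groups overlapped, with log2 fold changes of -0.28 (SE 0.21, limma adjusted p = 0.53) and 0.32 (SE 0.28, limma adjusted p = 0.48).

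**Figure D4:**
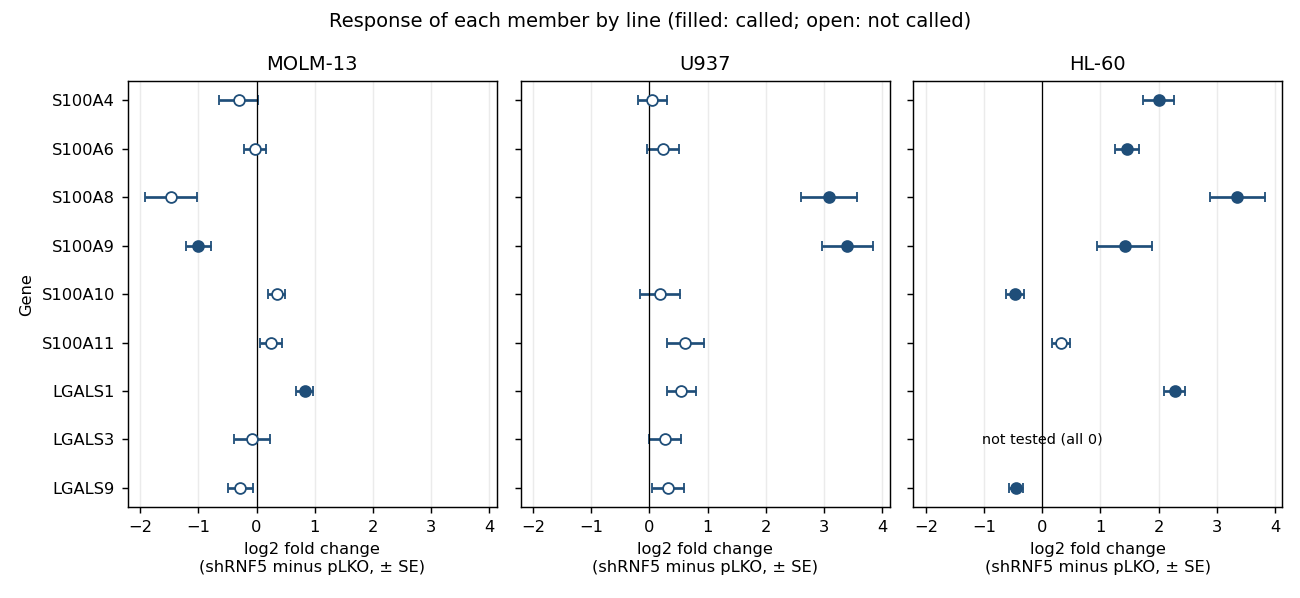
Log2 fold change (shRNF5 minus pLKO, bars ± SE) of each measured member in each line, filled where the gene was called changed and open where it was not. Filled points number 7 in HL-60 and 2 in each of the other lines, and the largest lie above 3 (S100A8 in U937 and HL-60, S100A9 in U937).

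Whether the lines responded differently was tested in one limma fit over all 15 libraries, for the 8 members above 0 in every line. Each pair of these comparisons shares the libraries of 1 line. MOLM-13 differed from U937 for S100A8 and S100A9, 2 of 8 members, against 15.4% of all genes tested. MOLM-13 differed from HL-60 for S100A4, S100A6, S100A8, S100A9 and LGALS1, 5 of 8 members, against 8.82% of all genes. U937 differed from HL-60 for S100A4, S100A6, S100A9, LGALS1 and LGALS9, 5 of 8 members, against 37.2% of all genes. U937 and HL-60 each had a higher S100A8 response than MOLM-13 (MOLM-13 minus the other, -4.56, SE 0.85, limma adjusted p = 0.0105, and -4.82, SE 0.77, limma adjusted p = 0.0088). Between U937 and HL-60 the S100A8 responses differed by -0.26 (SE 0.81, limma adjusted p = 0.837). S100A9 rose more in U937 than in HL-60, by 1.99 (SE 0.69, limma adjusted p = 0.0424), a difference that was lost without U937 pLKO replicate 2 (1.40, limma adjusted p = 0.19) or U937 shRNF5 replicate 3 (1.84, limma adjusted p = 0.108). S100A4 rose more in HL-60 than in U937 (difference -1.96, SE 0.48, limma adjusted p = 0.00852), as did S100A6 (-1.23, SE 0.35, limma adjusted p = 0.0178) and LGALS1 (-1.72, SE 0.27, limma adjusted p = 0.000906). S100A10 and S100A11 passed for no pair of lines in this fit, and S100A10 passed for MOLM-13 against HL-60 without any 1 of the 4 U937 libraries (0.81, limma adjusted p of 0.0894 to 0.0971).

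The lines were normalized separately, so levels in different lines are set side by side without a test. Per 1000000 of the summed values, S100A8 was at 84.7 in MOLM-13 pLKO, 2.44 in U937 pLKO and 2.95 in HL-60 pLKO, and S100A9 at 80.9, 3.16 and 5.48. With shRNF5, S100A8 was at 26.9, 20.2 and 32.2 in the same order and S100A9 at 42.0, 30.3 and 14.1. The 3 shRNF5 groups thus held more similar mean S100A8 levels than the 3 pLKO groups. The spread was wide, with an SD of 58.8 in MOLM-13 pLKO and 23.2 in HL-60 shRNF5. The fall of S100A8 in MOLM-13 was not called. LGALS1 was at 191, 280 and 9.63 with pLKO and at 340, 390 and 46.3 with shRNF5, so HL-60 stayed below the other lines. S100A11 was at 85.6, 227 and 377 with pLKO, highest in HL-60 and lowest in MOLM-13. The members together made up 0.0526% to 0.165% of the summed values of a library.

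Within a group, genes were ordered by the normalized read count per kb of transcript. This scale is uncertain, because the labels give a 3′ end kit, with which read numbers do not grow with length, whereas the study's methods give a directional poly(A) kit. In MOLM-13 pLKO the order ran from LGALS1 (9181 per kb) and S100A4 (8186) through S100A8 (5292), S100A6 (5060), S100A11 (3854), S100A9 (3585) and S100A10 (1829) to LGALS3 (1026) and LGALS9 (967.5). Neighbors from LGALS1 down to S100A9 overlapped between libraries, as did LGALS3 and LGALS9. In U937 pLKO, S100A4 (12900 per kb) came first, and S100A8 (96.8) and S100A9 (89.0) came last and overlapped. In HL-60 pLKO, S100A11 (10850 per kb) stood alone at the top, followed by S100A4 (2634), while LGALS1 (295.5), S100A9 (154.2) and S100A8 (116.8) were lowest and each overlapped its neighbor. With shRNF5, S100A8 stood at rank 5 in HL-60 (1314 per kb) and overlapped LGALS1 (1443) above it and LGALS9 (634.8) below it.

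The members' transcripts are 408 to 1724 nucleotides long, and responses moved with transcript length over all genes. Genes with transcripts of 400 to 700 nucleotides showed median log2 fold changes of 0.06 in HL-60 (n = 503), -0.20 in U937 (n = 574) and -0.09 in MOLM-13 (n = 556). Genes with transcripts over 3000 nucleotides had medians of -0.08, 0.11 and 0.10 in that order. The median of the short transcripts was thus below 0 in U937 and MOLM-13 and above 0 in HL-60. LGALS3 and LGALS9, with transcripts of 958 and 1724 nucleotides, lie outside the class of 400 to 700. With each library corrected for transcript length, the number of members called was 1 in MOLM-13, where S100A9 was lost (log2 fold change -0.85, limma adjusted p = 0.142), 4 in U937, where S100A11 (0.87, limma adjusted p = 0.0665) and LGALS1 (0.81, limma adjusted p = 0.0595) were added, and 7 in HL-60.

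**Figure D5:**
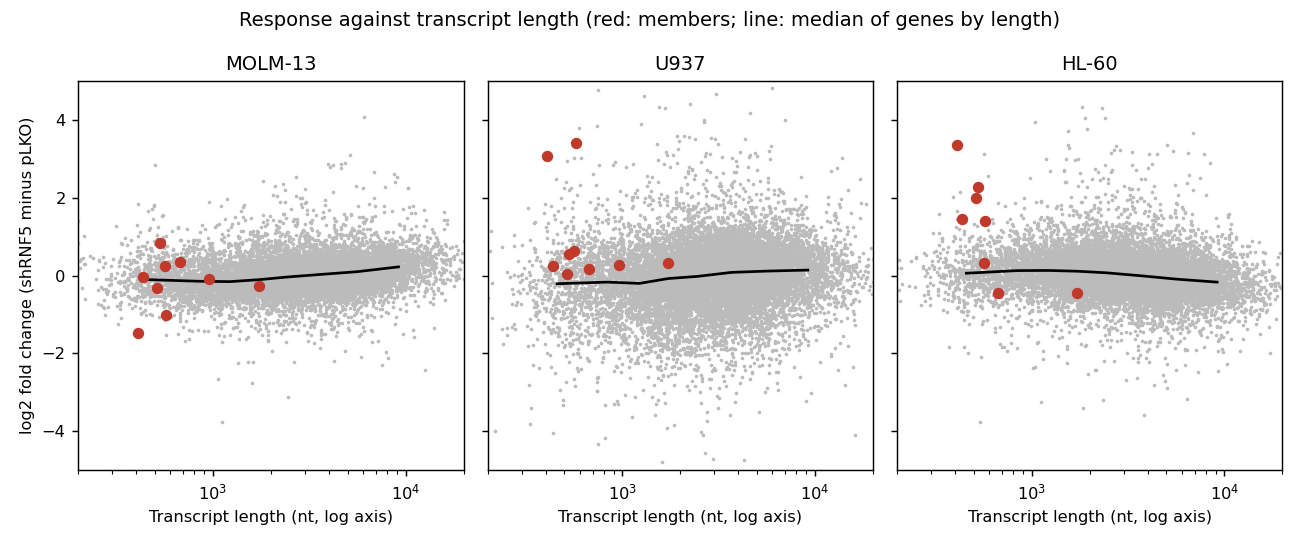
Log2 fold change (shRNF5 minus pLKO) against transcript length (log axis, nucleotides) for all tested genes with a reference transcript (grey), the members (red) and the median of genes by length (line), by line. Members sit at the short end, between 408 and 1724 nucleotides, and the median line moves between short and long transcripts by about as much as the medians of -0.20 and 0.11 in U937.

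Of 27 other genes named after the 2 families, 7 were above 0 in MOLM-13 and none of these was called. In U937 1 of 7 rose, and in HL-60 2 of 8 rose. The 27 include LGALS3BP, 1 of the 2 that rose in HL-60, and S100PBP. These 2 encode binding proteins and are not themselves a galectin or an S100 protein. Of all tested genes, 6.92% rose in U937 and 13.6% in HL-60. Galectin-3-binding protein LGALS3BP, a secreted glycoprotein, rose in HL-60 from 125.0 ± 50.2 to 782.7 ± 248.4 (SD, n = 3 each; log2 fold change 2.67, SE 0.32, limma adjusted p = 0.00125), although LGALS3 itself was at 0 there. S100B rose in HL-60 from 26.0 ± 8.5 to 74.3 ± 32.6 (SD, n = 3 each; log2 fold change 1.44, limma adjusted p = 0.0216). LGALS12 rose in U937 from 502.0 ± 11.3 to 1468.5 ± 330.2 (SD, n = 2 each; log2 fold change 1.53, limma adjusted p = 0.0185). S100P was at 1456.0 in U937 pLKO and 1784.0 in U937 shRNF5 and was not called, nor were S100A2, S100A3, S100A13, S100PBP, LGALS8 or LGALSL where measured.

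Of 6 receptors known for extracellular S100 proteins, 1 rose and 1 fell of 6 tested in MOLM-13, 2 rose and 2 fell of 6 in U937, and 1 rose and 1 fell of 5 in HL-60. Calls in either direction took 2.04%, 15.7% and 25.9% of all tested genes in these lines. AGER, which encodes the receptor RAGE, fell in U937 from 426.0 to 120.5 (log2 fold change -1.80, limma adjusted p = 0.0266) and rose in HL-60 from 48.7 to 74.7 (0.61, limma adjusted p = 0.0789). TLR4, the toll-like receptor that binds calprotectin, rose in U937 from 509.0 to 1362.5 (1.42, limma adjusted p = 0.0206). The scavenger receptor CD36 rose in U937 (3.09, limma adjusted p = 0.00172) and MOLM-13 (1.20, limma adjusted p = 0.0744) and was at 0 in HL-60. ALCAM fell in U937 (-1.48, limma adjusted p = 0.0297) and MOLM-13 (-0.69, limma adjusted p = 0.0853), and CD33 fell in HL-60 (-0.45, limma adjusted p = 0.0241).

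Of 7 intracellular partners of S100 proteins, 4 rose in HL-60, 1 in U937 and 2 in MOLM-13, and none fell, where 13.6%, 6.92% and 1.03% of all tested genes rose. ANXA2, the annexin that pairs with S100A10, rose in HL-60 from 23.7 ± 7.4 to 73.3 ± 28.7 (SD, n = 3 each; log2 fold change 1.56, limma adjusted p = 0.0124), where S100A10 fell. ANXA1, the annexin that binds S100A11, rose in all 3 lines (0.42 in HL-60, 2.17 in U937 and 1.14 in MOLM-13). MYH9, the heavy chain of the non-muscle myosin bound by S100A4, rose in MOLM-13 (0.72, limma adjusted p = 0.078) and HL-60 (0.46, limma adjusted p = 0.0277), and ANXA6 rose in HL-60 (0.79, limma adjusted p = 0.0221).

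Of 12 galectin-binding glycoproteins and related genes, 1 of 10 tested fell in MOLM-13, 3 of 11 rose in U937 and 4 of 11 rose in HL-60, where 1.01% of all tested genes fell in MOLM-13, 6.92% rose in U937 and 13.6% rose in HL-60. CD44, the hyaluronan receptor that carries galectin ligands, rose in HL-60 from 5.0 ± 2.6 to 57.3 ± 31.8 (SD, n = 3 each, log2 fold change 3.19, limma adjusted p = 0.00515). The HL-60 pLKO values of CD44 were 7, 2 and 6, near the floor, so the size of that rise is uncertain. In MOLM-13 CD44 fell (-0.76, limma adjusted p = 0.0647). ITGB1, an integrin chain bound by galectin-1, rose in U937 (1.17, limma adjusted p = 0.0563) and HL-60 (0.48, limma adjusted p = 0.0602), although its HL-60 groups overlapped. MGAT5, which builds the branched glycans galectins prefer, rose in U937 (1.06, limma adjusted p = 0.0624), as did TFRC, the transferrin receptor (2.72, limma adjusted p = 0.00558). The leukocyte surface glycoproteins PTPRC (0.42, limma adjusted p = 0.0431) and SPN (0.55, limma adjusted p = 0.0147) rose in HL-60.

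Of the 5 transcription factors known to act on S100A8 and S100A9 (CEBPA, CEBPB, CEBPD, CEBPE and SPI1, which encodes PU.1), only CEBPB in HL-60 was called, rising from 327.3 ± 52.2 to 482.0 ± 46.9 (SD, n = 3 each; log2 fold change 0.56, limma adjusted p = 0.0314). In U937, where both calprotectin genes rose, CEBPB was at 2005.5 ± 969.4 and 1074.5 ± 190.2 (SD, n = 2 each) in the pLKO and shRNF5 groups and SPI1 at 1556.5 and 875.0. CEBPE was at 338.0 and 601.0 there and CEBPA at 340.0 and 406.5. None of the 4 passed (limma adjusted p of 0.144, 0.127, 0.163 and 0.637), and CEBPD was listed at 0 in U937. Of the 5 myeloid markers, 2 rose and 1 fell in HL-60, with a median log2 fold change of -0.04. MPO (0.60, limma adjusted p = 0.078) and LYZ (1.25, limma adjusted p = 0.0777) rose, although the LYZ groups overlapped, and CD33 fell as given above, while CSF3R (-0.28, limma adjusted p = 0.351) and SPI1 (-0.04, limma adjusted p = 0.875) were not called. In U937, 1 of the 5 was called, CSF3R, which fell (-0.97, limma adjusted p = 0.0614), as did HOXA9 (-1.48, limma adjusted p = 0.0179) and MEIS1 (-0.96, limma adjusted p = 0.0738). Their part in the members' responses was not tested.

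Genes were compared with S100A8 and LGALS1 by the correlation of log2 values centered on each line, over 15 libraries. The 9586 genes compared had a mean of at least 50 in each line. Genes of the families and of the lists above were left out, S100A9 among them. The genes most like S100A8 were TAF13 (Pearson r 0.93), METTL25 (0.92) and ATG3 (0.91). Those most like LGALS1 were PRRG4 (0.96), CD82 (0.94) and MOV10 (0.94). The points share their libraries and the construct, so r is a description. CD82 rose with LGALS1 from 618.0 to 2549.3 in HL-60 (log2 fold change 2.01), from 229.3 to 412.0 in MOLM-13 (0.87) and from 844.0 to 1434.0 in U937 (0.77), whereas the log2 fold changes of TAF13 were 0.55 in HL-60, 0.50 in U937 and -0.26 in MOLM-13.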

How the data were processed

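The 15 libraries were grouped as their titles give the line and the construct. Reads were trimmed by the authors, mapped to hg19 by STAR, assigned to genes by featureCounts and normalized one line at a time by edgeR within SARTools. The deposited values are treated as a score, being counts that the authors divided by a library factor and rounded, with 0 for genes that did not pass their filter. Depth was estimated from the spacing of these rounded values and limits genes with low values most.

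The test was limma 3.58.1 in R 4.3.3, using empirical Bayes with a trend on log2(value + 1). HL-60 had 12570 genes above 0, U937 13165 and MOLM-13 13026, and the Benjamini-Hochberg adjustment covered all of them. Differences between lines were tested over 11072 genes above 0 in all 3 lines. The procedure was run on simulated data with the same setting of spread for all genes and no shift with transcript length, unlike the data here. That run is thus no check on genes with a wide spread, such as S100A8. No libraries were identical.

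The members, the lists of related genes and the tests were chosen with earlier results of these data known. All members, other genes named after the families and above 0, and called genes of the lists are named. So are the 3 genes most like S100A8 and LGALS1 among genes outside the families and lists. Transcript lengths and coordinates came from GENCODE annotation of GRCh37, found for 97.5% of genes above 0. The tried alternatives were pseudocounts of 0.5 and 10, a mean of at least 50, median-ratio rescaling, no trend, an adjusted p under 0.05, one fit over all libraries, a replicate block and leaving out each library. The correction for transcript length was chosen after seeing the data. Some marker results are not reported here.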

Additional observations from a re-analysis of the deposited data

Results flagged for a closer look

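Every result given here was singled out because the response to shRNF5 differed between 2 lines by a test of the difference itself (limma, one fit over all libraries, adjusted p under 0.1). Each difference is that of log2 fold changes, the first line minus the second. Between MOLM-13 and U937, S100A8 differed by -4.56 (limma adjusted p = 0.0105) and S100A9 by -4.40 (0.00782).

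Between MOLM-13 and HL-60, S100A8 differed by -4.82 (limma adjusted p = 0.0088), S100A9 by -2.42 (0.0543), S100A4 by -2.31 (0.0194), S100A6 by -1.49 (0.0277) and LGALS1 by -1.45 (0.0113). Without MOLM-13 shRNF5 replicate 1, the differences of S100A4 (limma adjusted p = 0.156), S100A6 (0.156) and S100A9 (0.262) were lost, and without MOLM-13 shRNF5 replicate 2 those of S100A6 (0.111) and S100A9 (0.114). That of S100A9 was also lost without HL-60 pLKO replicate 3 (0.119) or HL-60 shRNF5 replicate 3 (0.152). Depth moved with the construct in MOLM-13, and its part in these differences was not tested.

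Between U937 and HL-60, S100A4 differed by -1.96 (limma adjusted p = 0.00852), LGALS1 by -1.72 (0.000906), S100A6 by -1.23 (0.0178), S100A9 by 1.99 (0.0424) and LGALS9 by 0.77 (0.0539). LGALS9 fell in HL-60 and was not called in U937, and its difference was lost without U937 pLKO replicate 2 (limma adjusted p = 0.233), U937 shRNF5 replicate 1 (0.109), U937 shRNF5 replicate 3 (0.124) or HL-60 pLKO replicate 2 (0.105). That of S100A9 was lost without U937 pLKO replicate 2 (0.19) or U937 shRNF5 replicate 3 (0.108).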

How the results depend on the processing

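The number of members called in MOLM-13 was 2. It was 0 without the mean-variance trend in limma and 0 at an adjusted p under 0.05, with 3 of 9 members at an unadjusted p under 0.05 in both, and 1 in one fit over all libraries and after the length correction. With each library left out it ranged from 0 to 3 in MOLM-13 (0 without any of pLKO replicates 2 and 3 and shRNF5 replicates 1 and 2, with 3 to 4 members at an unadjusted p under 0.05, and 3 without pLKO replicate 1). In U937 it ranged from 0 to 3 around 2 (0 without pLKO replicate 2 or either shRNF5 replicate, with 2 members at an unadjusted p under 0.05, and 3 without pLKO replicate 3), and was 4 after the length correction and 4 in one fit. In these fits a lone library is assumed to vary like the other group. In HL-60 it ranged from 4 (without pLKO replicate 2) to 8 (without shRNF5 replicate 2) around 7. The number of members whose response differed ranged from 2 to 4 for MOLM-13 against U937 (4 without U937 pLKO replicate 3), 2 to 6 for MOLM-13 against HL-60 (2 and 3 without MOLM-13 shRNF5 replicates 1 and 2) and 3 to 7 for U937 against HL-60 (3 without U937 pLKO replicate 2 or shRNF5 replicate 3). Pseudocounts of 0.5 and 10 and median-ratio rescaling left all these counts as they were, and a mean of at least 50, tried within each line only, left the number called in each line as it was.

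With the replicate number as a block, 3 members were called in MOLM-13, where S100A8 was added (log2 fold change -1.83, limma adjusted p = 0.00347, with pLKO replicate 3 left without a partner). In HL-60 the block gave 7 members. Libraries of the same number deviated from their group means with correlations of -0.17 and -0.53 in MOLM-13 and 0.51, 0.16 and -0.11 in HL-60, so the numbers were not taken to pair the samples. In HL-60 not every library correlated best with its own number. U937 shared 1 number between its groups, so no block could be fitted there.

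Of 832 alternatives for single values, 744 kept their direction and side of the threshold, 49 lost a call, 17 gained one and 22 changed sign. Of the sign changes, those after the length correction were in MOLM-13, for S100A6 (0.12) and LGALS3 (0.092). The others came from leaving out a library and concern values that were not called. Their log2 fold changes ranged in MOLM-13 from -0.61 to 0.029 for S100A4, -0.13 to 0.14 for S100A6 and -0.43 to 0.27 for LGALS3. In U937 they ranged from -0.15 to 0.24 for S100A4, -0.089 to 0.56 for S100A6 and -0.26 to 0.62 for S100A10. Differences in response between MOLM-13 and U937 ranged from -0.59 to 0.062 for S100A6, -0.27 to 0.61 for S100A10 and -0.82 to 0.081 for S100A11. S100A11 ranged from -0.19 to 0.10 for MOLM-13 against HL-60 and from -0.15 to 0.75 for U937 against HL-60, and S100A8 from -0.74 to 0.31 for U937 against HL-60. The cause of these changes was not tested beyond the smaller number of libraries. Depth limits S100A8 and S100A9 most, at an estimated 23 to 98 and 26 to 197 reads in the U937 and HL-60 pLKO libraries.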
